A study of Mus musculus with 2 samples.

Results

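The genes described here encode the nucleolar machinery that builds ribosomes, together with the transcription factor Myc. They were chosen by name, and all 40 listed members matched 1 row each among the 28692 genes of both matrices. The cells were mouse bone marrow LSK cells (lineage-negative, Sca-1-positive, Kit-positive cells, the fraction that holds the stem cells of blood) of the strain C57BL/6, infected with a retrovirus, sorted for its GFP and profiled by droplet single-cell RNA sequencing. The first group had received an shRNA against Cxxc5 (Cxxc5 knockdown) and the other a control shRNA that targets no mouse gene, and both were grown for 3 days with 10 ng/ml GM-CSF, 10 ng/ml SCF and 20% serum. Each group was 1 library pooled from 5 samples, so no comparison has a replicate check, no p-value is given, and the 95% intervals speak only of the error of counting.

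Ribosome production starts in the nucleolus, where RNA polymerase I copies the ribosomal DNA into a long precursor RNA. Small nucleolar RNAs with their proteins modify that precursor, the small-subunit processome folds and cuts its first part, and a separate set of assembly factors builds the large subunit around the rest. Myc is a well-known activator of many of these genes, and ribosome production is known to be shut down when granulocyte precursors leave the growing state and fill with granules.

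The Cxxc5 knockdown library held 6004 cells with a median of 10599 UMIs (unique molecular identifiers, 1 per captured RNA molecule), and the control library 2912 cells with a median of 17197. The libraries shared 26 cell barcodes, 0.433% of those of the knockdown and 0.893% of those of the control. The targeted transcript, Cxxc5, had 1.16 CPM (the UMIs of a gene scaled to an equal total of UMIs) in the knockdown and 9.38 CPM in the control library. Cells were placed in gates by marker genes, none of them a member. Progenitors, gated on the granule genes Mpo, Elane, Prtn3 and Ctsg and below the cuts of the other gates, were 2673 knockdown and 1034 control cells. Early neutrophils, with S100a8 and S100a9 but little of the granule gene Ltf, were 1835 and 948 cells, and late neutrophils, with Ltf as well, were 291 and 200 cells. Of 6 late-neutrophil check genes outside the gates, Camp, Ngp and Lcn2 among them, the sum was 47484 CPM in knockdown and 43879 CPM in control late neutrophils, against 86.2 and 90.4 CPM in the progenitor gate of the same libraries. The monocyte gate held 488 and 348 cells, the mast cell and basophil gate 392 and 184, and 261 and 136 cells fell in no gate. The dendritic cell gate, with 64 and 62 cells, was too small to compare.

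The 40 members together were far lower in late neutrophils than in progenitors, in both libraries. Their UMIs, summed in each cell and given per 10000 UMIs of that cell, had a median of 78.7 in progenitors, 45.9 in early neutrophils and 9.75 in late neutrophils of the Cxxc5 knockdown library. In the control library the medians were 74.7, 38.0 and 8.22. In raw counts the median cell of the knockdown held 89, 46 and 6 member UMIs at these stages, and that of the control 138, 59 and 7. The progenitor and late neutrophil gates hardly overlapped. The 95th percentile of late neutrophils was 33.1 in the knockdown and 16.0 in the control library, while the 5th percentile of progenitors was 42.5 and 38.5.

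**Figure D1:**
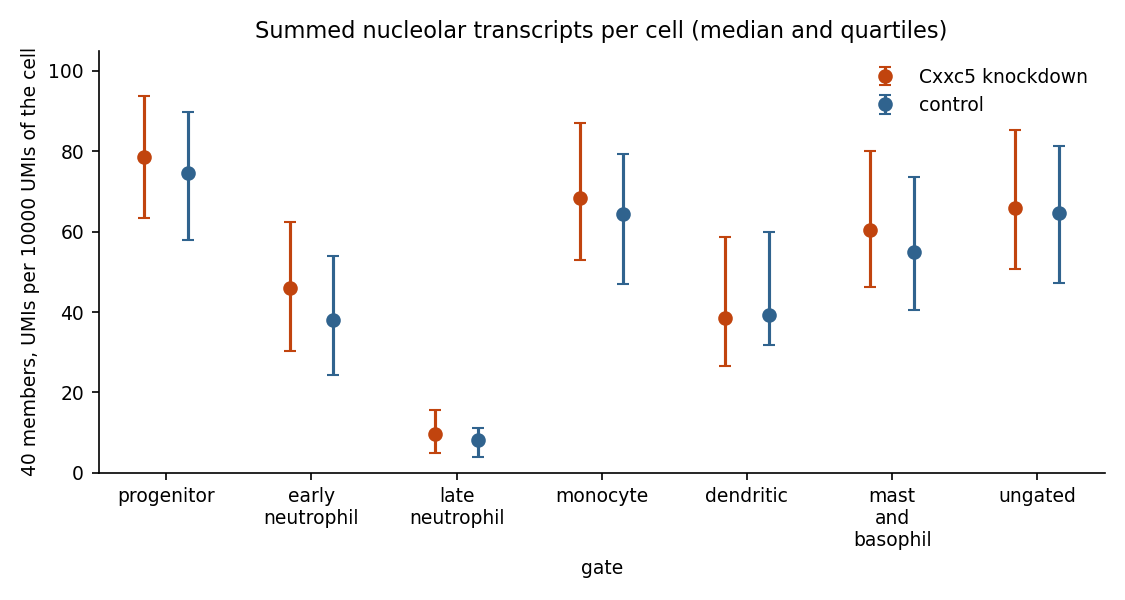
The summed UMIs of the 40 members per 10000 UMIs of a cell are plotted by gate, with points at the median over cells and bars at the quartiles, for Cxxc5 knockdown (left) and control (right). Late neutrophils stand lowest, at medians of 9.75 and 8.22, and progenitors highest, at 78.7 and 74.7.

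The other gates lay between these ends. Monocyte-gated cells had medians of 68.3 in the knockdown and 64.5 in the control library, close to those of ungated cells at 65.9 and 64.6. Mast cell and basophil-gated cells stood at 60.3 and 55.0, and dendritic-gated cells, few in number, at 38.6 and 39.3. The quartiles of neighbouring gates overlapped throughout this upper range, so the order of progenitor, monocyte, ungated and mast cell gates rests on shifts smaller than the spread over cells.

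Every member was lower in the neutrophil gates than in progenitors of its own library. In early neutrophils 40 of 40 members were at least 1.2-fold lower than in progenitors, in both libraries, where 37.9% of all measured genes in the knockdown and 41.4% in the control were so (measured means at least 10 CPM in a group compared). The median log2 ratio over members was -0.74 in the knockdown and -0.85 in the control, against -0.16 and -0.19 over all measured genes. At least 1.2-fold higher in early neutrophils were 0 members, where 13.2% and 13.7% of all genes were, and at least 4-fold lower also 0, where 0.146% and 0.218% were. In late neutrophils the median was -2.43 and -2.97, against -0.72 and -0.83 over all genes. All 40 were again at least 1.2-fold lower, with 69% and 71% of all genes, and 35 of 40 in the knockdown and 39 of 40 in the control were at least 4-fold lower, where 10.5% and 15% of all genes were. None of the members was higher there, against 16.5% and 15.5% of all genes. All 40 members reached 10 CPM in progenitors, but only 27 did in knockdown and 20 in control late neutrophils. The rest passed through the progenitor gate alone and had to be lower in late neutrophils, so these late counts are descriptions only. Heatr1 and Noc3l were under 10 CPM in early neutrophils of both libraries, as was Polr1b in the control, and passed in the same way. The summed members in late neutrophils came to 18.1% of their progenitor level in the knockdown (5.51-fold lower) and 12.1% in the control (8.25-fold lower).

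S100a8 and S100a9 alone took 17.8% of all UMIs in knockdown and 18.7% in control late neutrophils, which lowers the CPM of every other gene. With each gate scaled to its median gene instead, the late medians of the members were -1.70 and -2.15 and the early ones -0.58 and -0.67. All 40 members stayed at least 1.2-fold lower in late neutrophils of both libraries under that scaling, and 38 and 40 did in early ones. The share of all genes past that mark under this scaling was not taken, so these counts are descriptions only.

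**Figure D2:**
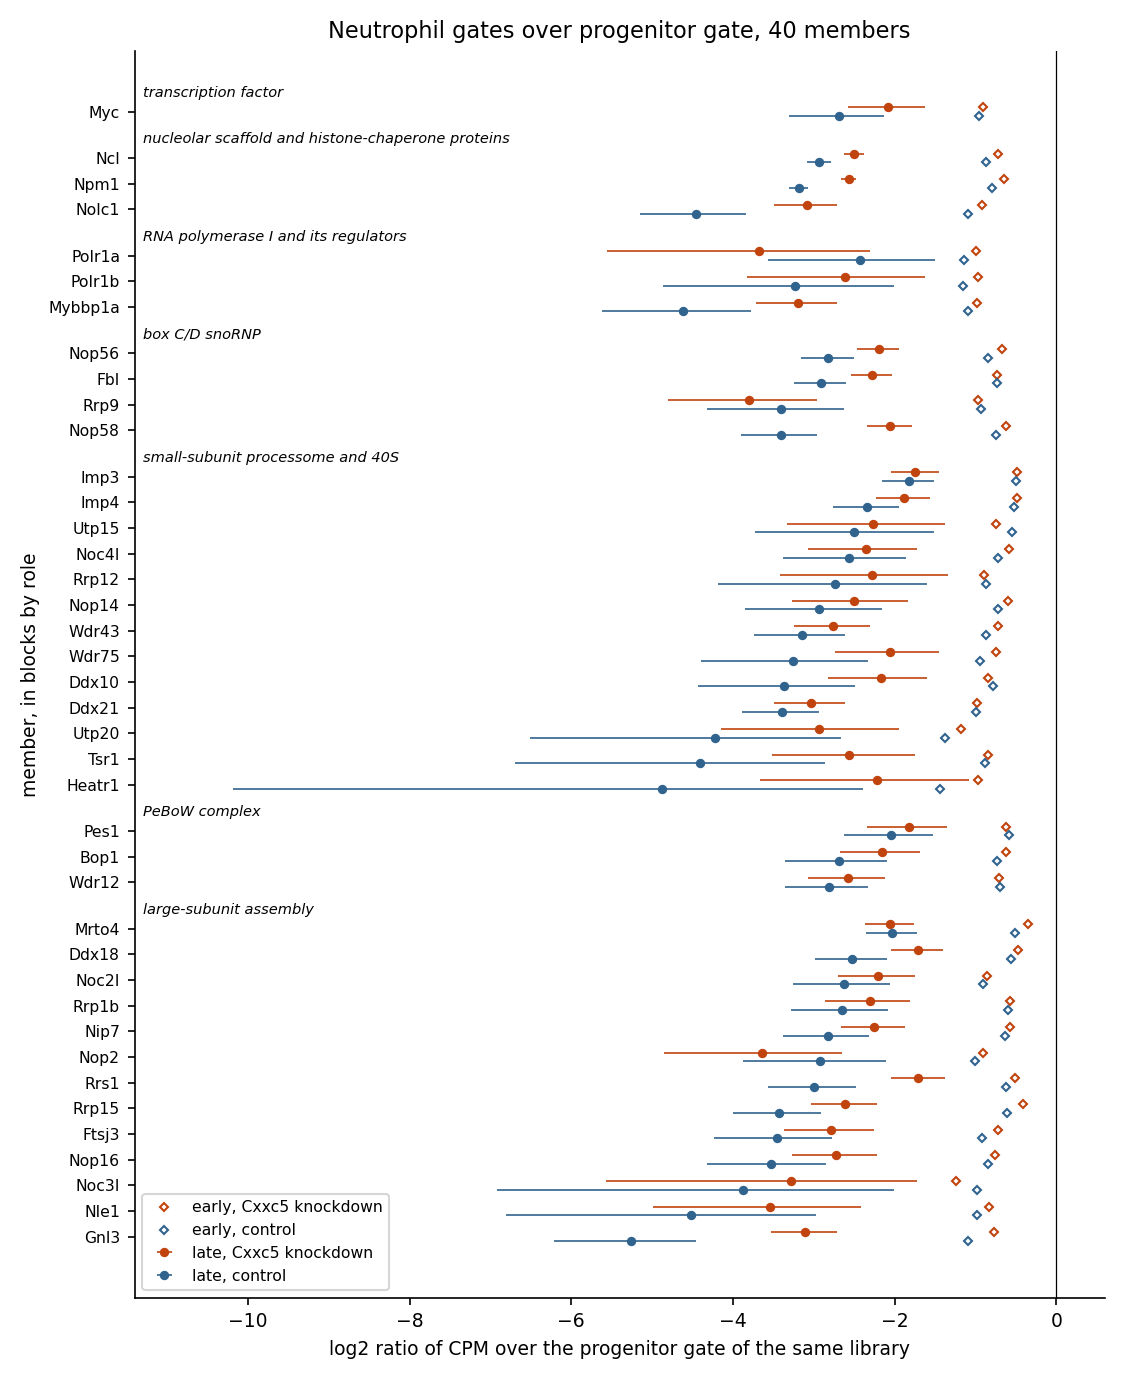
Log2 ratios of CPM over the progenitor gate of the same library are shown for each member, in blocks by role, for late neutrophils (filled, with 95% counting intervals) and early neutrophils (open), with Cxxc5 knockdown above control in each row. All points lie below 0, and the late points spread from -1.71 for Rrs1 to -3.80 for Rrp9 in the knockdown and from -1.82 for Imp3 to -5.26 for Gnl3 in the control.

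Myc itself, the transcription factor of the set, had 76.0 CPM in progenitors, 40.5 in early neutrophils and 17.9 in late neutrophils of the Cxxc5 knockdown, and 79.4, 40.9 and 12.3 CPM in the control. Its late level was 4.24-fold below that of progenitors in the knockdown (log2 -2.08, interval -2.58 to -1.63) and 6.46-fold below in the control (-2.69, -3.31 to -2.13). Outside the neutrophil gates its levels were higher, at 107 and 103 CPM in ungated cells, 91.6 and 99.6 in the mast cell gate and 89.0 and 70.4 in the monocyte gate. Its late ratios lay within the range of those of the nucleolar genes.

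Nucleolin (Ncl) and nucleophosmin (Npm1), abundant proteins that give the nucleolus its structure and act as chaperones, supplied many of the members' UMIs. Ncl had 1489.5, 907 and 263 CPM in progenitors, early and late neutrophils of the knockdown, and 1406, 769 and 184 CPM in the control. Npm1 had 2788, 1777 and 470.0 CPM in the knockdown and 2582, 1484 and 283 CPM in the control. Npm1 has processed copies in the mouse genome, so its counts may lack reads shared with them. Nolc1, a chaperone of small nucleolar RNA-protein particles, was lower still in late neutrophils. It had 227, 119 and 26.7 CPM in the knockdown and 218, 102 and 9.93 CPM in the control, so that its late level was 8.497-fold and 21.9-fold below progenitors. In the monocyte, mast cell and ungated gates these genes were well above their late neutrophil levels. Ncl had 1236, 1119 and 1232 CPM in the knockdown and 1181, 1017 and 1182 CPM in the control. For Npm1 the levels were 2705, 2529.7 and 2769.9 CPM in the knockdown and 2421, 2298 and 2566 CPM in the control. Nolc1 showed 203, 146 and 187 CPM in the knockdown and 198, 130.1 and 170.3 CPM in the control.

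Of the RNA polymerase I genes, Polr1a and Polr1b encode the subunits that form the catalytic centre, and Mybbp1a encodes a nucleolar protein known to bind the polymerase and to act in precursor processing. Mybbp1a had 147, 74.3 and 16.1 CPM at the 3 stages in the knockdown and 128, 59.9 and 5.20 CPM in the control. Its late level was 9.13-fold below progenitors in the knockdown and 24.6-fold below in the control. Polr1a was scarce, at 23.5, 11.8 and 1.84 CPM in the knockdown and 23.0, 10.5 and 4.26 CPM in the control. Its late values rest on 4 knockdown and 9 control UMIs, and Polr1b's on 8 and 5, so that their order between libraries is not resolved at this depth. Outside the neutrophil gates Polr1a held 21.2, 19.0 and 21.9 CPM in the knockdown and 22.3, 14.1 and 23.6 CPM in the control (monocyte, mast cell and ungated gates). In the same gates Mybbp1a reached 129, 113 and 143 CPM in the knockdown and 103, 90.7 and 117 CPM in the control, higher in the knockdown in each.

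The box C/D particle methylates ribosomal RNA. Its methyltransferase Fbl had 300.1, 180.1 and 61.6 CPM at the 3 stages in the knockdown and 299, 181 and 39.7 CPM in the control. The core protein Nop56 had 269.6, 169 and 58.9 CPM in the knockdown and 261, 146 and 36.9 CPM in the control, a late level 4.58-fold and 7.07-fold below progenitors. The other core protein, Nop58, had 213, 138 and 51.0 CPM in the knockdown and 201, 120.1 and 18.9 CPM in the control, 4.16-fold and 10.6-fold below. Rrp9, a protein of the U3 particle, had 11 and 13 late UMIs and was 14.0-fold and 10.6-fold below progenitors. The medians of these 4 genes in late neutrophils were -2.24 and -3.16 on the log2 scale. In the monocyte, mast cell and ungated gates Fbl stood at 309.7, 276 and 301 CPM in the knockdown and 297, 264 and 306 CPM in the control. There Nop56 had 260.0, 217 and 257 CPM in the knockdown and 241, 192 and 219 CPM in the control. The corresponding levels of Nop58 were 199.95, 166 and 189 CPM in the knockdown and 181, 147 and 172 CPM in the control, so that all 3 genes were well above their late neutrophil levels there.

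The 13 factors of the small-subunit processome and later 40S maturation had late medians of -2.28 in the knockdown and -3.15 in the control. Imp3 and Imp4, which bind the U3 RNA, were the least reduced of them in the control. Imp3 had 151, 108 and 45.1 CPM at the 3 stages in the knockdown and 144, 102 and 40.7 CPM in the control, a late level 3.35-fold and 3.54-fold below progenitors. Imp4 kept 27.1% and 19.7% of its progenitor level. At the other end stood Heatr1, a large scaffold protein tied to precursor transcription, whose late level rests on 6 UMIs in the knockdown (log2 -2.21, interval -3.67 to -1.08) and on 1 in the control (-4.87, -10.18 to -2.38). Utp20 and Tsr1 had 3 late UMIs each in the control, with intervals of -6.51 to -2.67 and -6.69 to -2.86. The RNA helicase Ddx21 had enough UMIs to be read, with 169, 85.9 and 20.7 CPM in the knockdown and 188, 94.8 and 18.0 CPM in the control. The remaining members of the block, Wdr43, Wdr75, Utp15, Nop14, Noc4l, Rrp12 and Ddx10, were between 4.17-fold and 6.76-fold lower in knockdown and between 5.67-fold and 10.4-fold lower in control late neutrophils. Ddx10, a helicase among them, had 49.8, 27.8 and 11.04 CPM in the knockdown and 49.0, 28.6 and 4.73 CPM in the control at the 3 stages. In the monocyte, mast cell and ungated gates Imp3 had 152, 163 and 198 CPM in the knockdown and 122, 167 and 145 CPM in the control. In log2 terms the helicase Ddx21 was lower in knockdown than in control progenitors (-0.15) and early neutrophils (-0.14). It gave 176, 139.9 and 179 CPM in the knockdown and 179, 165 and 189.8 CPM in the control in the monocyte, mast cell and ungated gates. Heatr1 had 12.8, 6.55 and 2.76 CPM in the knockdown and 13.9, 5.14 and 0.473 CPM in the control at the 3 stages. In the monocyte, mast cell and ungated gates it had 8.52, 7.54 and 10.7 CPM in the knockdown and 13.2, 10.2 and 10.6 CPM in the control, and Ddx10 38.9, 41.0 and 36.0 CPM in the knockdown and 41.8, 46.9 and 43.6 CPM in the control.

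Pes1, Bop1 and Wdr12 form the PeBoW complex, which is needed to process the precursor of the large subunit's RNA. Pes1 had 60.3, 39.3 and 17.01 CPM in the knockdown and 58.7, 39.1 and 14.2 CPM in the control. Wdr12 had 107, 65.4 and 17.9 CPM in the knockdown and 113, 69.7 and 16.1 CPM in the control. Pes1 was 3.54-fold and 4.14-fold below progenitors in late neutrophils, Bop1 4.47-fold and 6.44-fold, and Wdr12 5.97-fold and 7.04-fold, so this complex was among the less reduced groups in both libraries, with late medians of -2.16 and -2.69. In the monocyte, mast cell and ungated gates Pes1 had 52.8, 47.7 and 47.1 CPM in the knockdown and 53.1, 42.6 and 39.5 CPM in the control. Wdr12 had 86.7, 90.5 and 92.3 CPM in the knockdown and 86.4, 95.3 and 90.8 CPM in the control in those gates.

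The 13 other large-subunit factors spanned the widest range in the control. The nucleolar GTPase Gnl3, known as nucleostemin, had 205, 120.2 and 23.9 CPM in progenitors, early and late neutrophils of the knockdown, and 218, 103 and 5.68 CPM in the control. Its control ratio, 38.4-fold below progenitors (log2 -5.26, interval -6.22 to -4.46), was the lowest of any member, and its knockdown ratio was 8.59-fold (-3.10, -3.53 to -2.71). Mrto4, a factor that holds the place of a stalk protein on the nascent large subunit, had 179, 141 and 43.2 CPM in the knockdown and 168, 118 and 41.1 CPM in the control, only 4.15-fold and 4.07-fold below. Rrs1, which helps bring in the 5S particle, and the helicase Ddx18 were 3.26-fold and 3.27-fold below in the knockdown, against 7.99-fold and 5.75-fold in the control. The RNA methyltransferase Ftsj3 had 92.0, 55.8 and 13.3 CPM in the knockdown and 88.1, 46.7 and 8.04 CPM in the control. Nop2, another, stood at 3.68 CPM in knockdown and 5.68 CPM in control late neutrophils. Nle1, a factor of the WD-repeat type, and Noc3l had at most 6 late UMIs in a library. Nop16, Nip7, Rrp1b, Rrp15 and Noc2l were between 4.61-fold and 6.59-fold lower in the knockdown and between 6.17-fold and 11.6-fold lower in the control. Nip7, an early joining factor of the large subunit, went through 121, 81.1 and 25.3 CPM in the knockdown and 107, 68.7 and 15.1 CPM in the control. Noc2l, a partner of Noc3l in carrying pre-60S particles, had 82.7, 45.6 and 17.9 CPM in the knockdown and 73.0, 39.0 and 11.8 CPM in the control. Rrp1b held 72.8, 48.8 and 14.7 CPM in the knockdown and 74.3, 49.0 and 11.8 CPM in the control at these stages, with close values in both libraries in progenitors and early neutrophils.

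For the large-subunit factors the other gates again stood well above late neutrophils. In the monocyte, mast cell and ungated gates Gnl3 had 174, 184 and 193 CPM in the knockdown and 193, 173 and 208 CPM in the control. Mrto4 was at 144, 128 and 134 CPM in the knockdown and 141, 113 and 131 CPM in the control there. These genes, opposite ends of the range in late neutrophils of the control, were thus both several times above their late levels outside the neutrophil gates. Nip7 had 112, 88.2 and 86.5 CPM in the knockdown and 95.4, 75.02 and 81.3 CPM in the control in the same gates. Noc2l was at 89.2, 69.0 and 83.1 CPM in the knockdown and 78.9, 52.8 and 89.0 CPM in the control, and Ftsj3 at 85.01, 70.6 and 74.8 CPM in the knockdown and 76.3, 49.2 and 69.0 CPM in the control. Rrp1b gave 65.1, 58.9 and 63.6 CPM in the knockdown and 69.8, 54.3 and 60.1 CPM in the control, and the scarce Noc3l 10.4, 11.7 and 11.2 CPM in the knockdown and 12.2, 12.1 and 15.3 CPM in the control.

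To read the decline in finer steps than the gates, the cells of the progenitor and neutrophil gates were put in 10 bins of rising S100a8 and S100a9. The bin edge at 20 UMIs per 10000 is also the neutrophil cut. Bins below it thus held only progenitor-gate cells and bins above it only neutrophil-gate cells. The median member sum per 10000 UMIs was lower from bin to bin in the knockdown, with 82.0, 76.1, 68.2, 62.6, 52.8, 51.9, 36.8, 27.7, 17.4 and 7.24. The control bins gave 79.6, 73.7, 61.2, 54.4, 54.1, 40.8, 33.3, 25.2, 13.4 and 6.80. The level was thus lower in each bin than in the one before, and the decline had begun in the bins under 200 S100a8 and S100a9 UMIs per 10000, which held no late-gate cells. With S100a8 and S100a9 taken out of each cell's total, the end bins were 82.0 and 9.33 in the knockdown and 79.6 and 8.59 in the control.

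Proliferation genes did not follow the members down this axis. The sum of 20 proliferation genes, among them Mki67, Top2a, Cdk1 and Pcna, was 25.4 per 10000 UMIs in the lowest and 27.4 in the highest bin of the knockdown, and 24.7 and 24.9 in the control. Among cells thinned to 5000 UMIs, at least 5 proliferation UMIs were found in 98.2% and 97.8% of progenitors, 98.8% and 96.6% of early neutrophils and 92.9% and 85.6% of late neutrophils, so too few cells lay under that mark to compare. Myc stood at 6.60 CPM in the highest bin against 81.8 CPM in the lowest of the knockdown, and at 12.2 against 88.5 CPM in the control, the highest bins resting on 9 and 19 Myc UMIs.

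**Figure D3:**
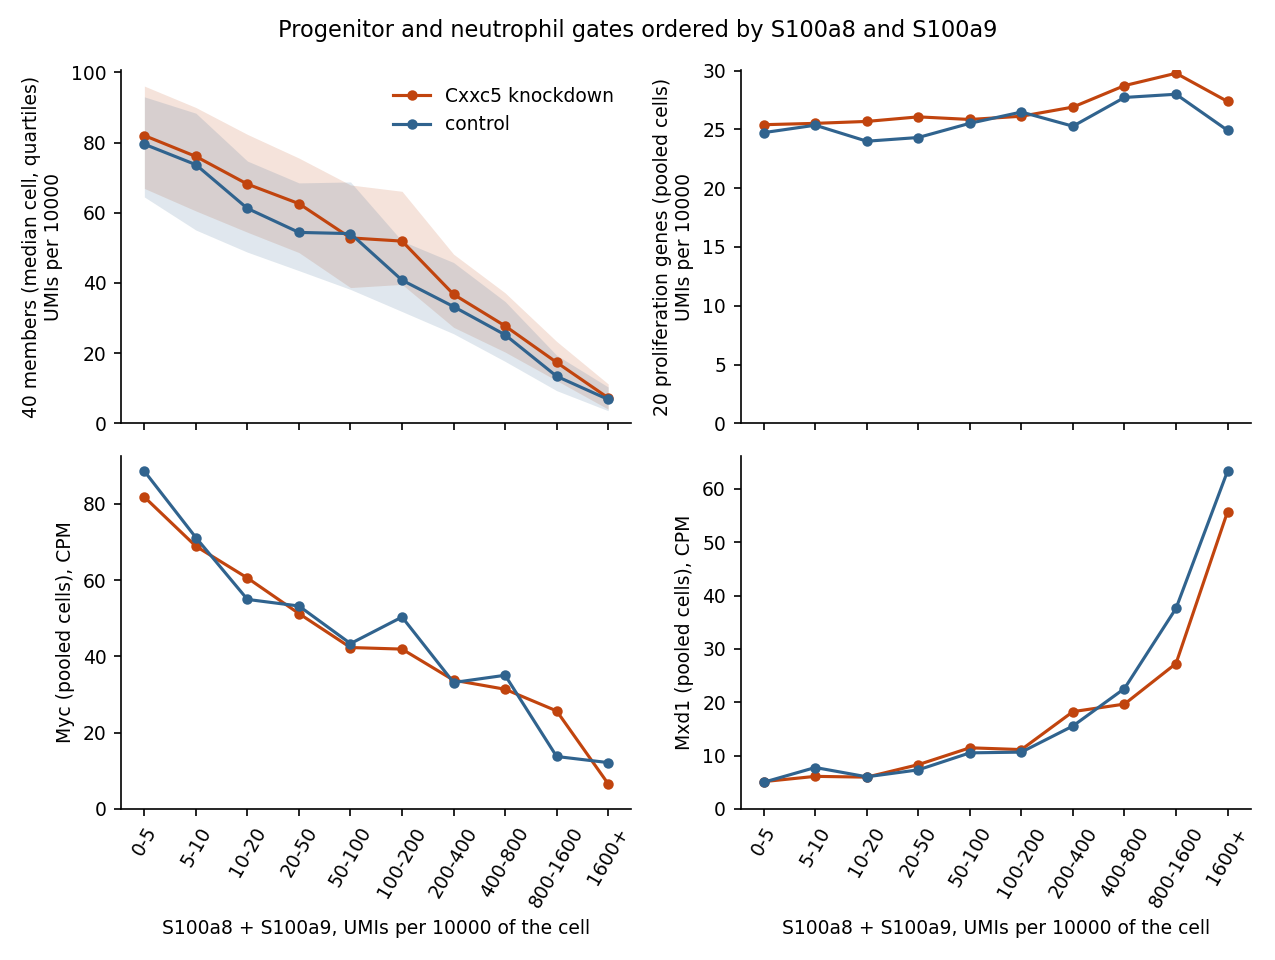
Progenitor and neutrophil-gated cells are ordered in 10 bins of S100a8 and S100a9 per 10000 UMIs, and the panels give the members per cell (median, shaded quartiles), the 20 proliferation genes, Myc and Mxd1, for Cxxc5 knockdown and control. The members reach 7.24 and 6.80 in the highest bin and the sum of the proliferation genes stays between 24.0 and 29.8, while Mxd1 reaches 55.7 and 63.3 CPM.

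The partners and antagonists of Myc differed in direction along the same stages. MAX pairs with MYC on DNA, and the MXD proteins pair with MAX and repress the same kind of genes. Mxd1 had 45.5 CPM in late neutrophils against 5.45 CPM in progenitors of the knockdown (log2 3.06, interval 2.69 to 3.43), and 62.9 against 5.78 CPM in the control (3.44, 3.07 to 3.82). Mxd3 was higher as well, with log2 ratios of 2.21 and 2.64, and so was Mxi1, with 0.91 and 0.92. Max, with -0.55 and -0.49, and Mlx, with -0.26 and -0.55, lay above the median of all genes, as did Mxd4, with 0.11 and 0.21. Mga, a MAX partner with a further DNA-binding domain, was lower, with -2.29 and -2.21. Of the 7 measured network genes 3 were at least 1.2-fold higher in late neutrophils of each library, where 16.5% and 15.5% of all genes were, and 2 in the knockdown and 3 in the control were at least 1.2-fold lower, where 69% and 71% were. Mxd1 was under 10 CPM in progenitors of both libraries, so it passed through the late gate alone and had to be higher there. These counts are therefore descriptions only.

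Other genes of ribosome production were lower too, most of the lists by less. Of 75 measured other ribosome biogenesis factors 74 were at least 1.2-fold lower in late neutrophils of each library, where 69% and 71% of all genes were, with medians of -1.74 in the knockdown and -2.05 in the control. Only 50 of the 77 matched factors reached 10 CPM in late neutrophils of either library. Those that passed through the progenitor gate alone had to be lower in late neutrophils, so this count is a description only. The 6 genes of the H/ACA particle, which converts uridines of ribosomal RNA to pseudouridine, were lower by as much as the members, with medians of -2.41 and -3.06. Other RNA polymerase I factors had medians of -1.63 and -1.59, and other well-known Myc targets, such as Odc1 and Srm, -2.07 and -2.25. The structural proteins of the ribosome were lower as well, but by less than the factors that assemble it. Cytosolic ribosomal protein genes had late medians of -0.76 and -0.64, near those of all genes at -0.72 and -0.83. Of 81 measured, 80 were at least 1.2-fold lower in late neutrophils of each library, where 69% and 71% of all genes were. They took 30.2% of UMIs in the lowest S100a8 and S100a9 bin of the knockdown and 15.3% in the highest. In the control these shares were 30.5% and 17.8%. The medians of mitochondrial ribosomal protein genes were -1.27 and -1.54, and those of the proliferation genes 0.14 and -0.10, above all genes in both libraries. These lists are given beside the members as descriptions, and no test was made between them.

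**Figure D4:**
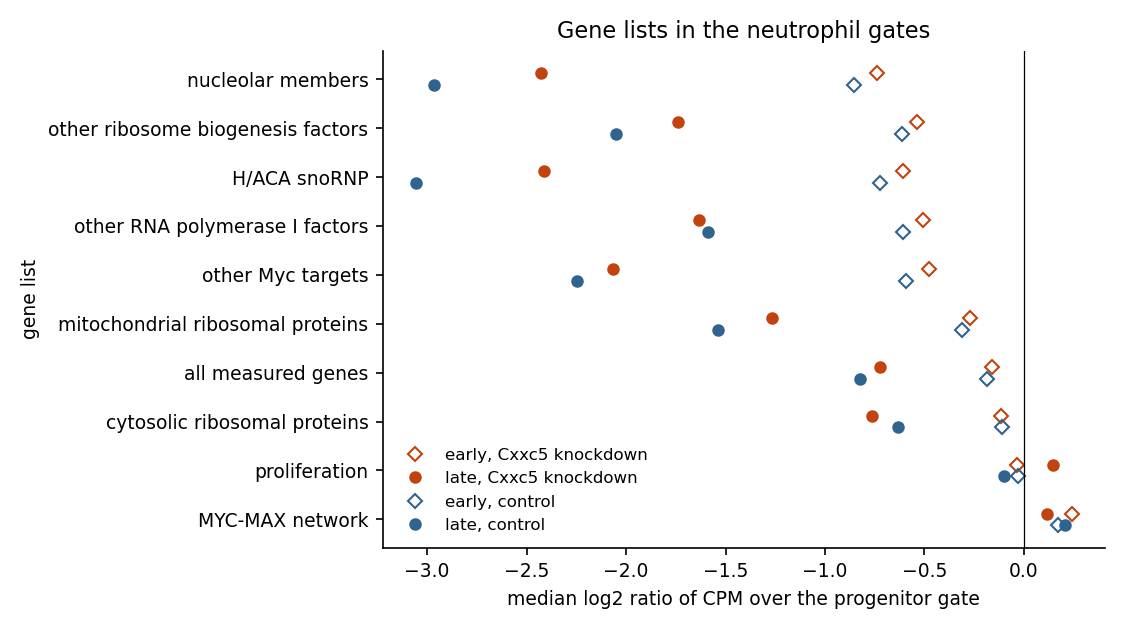
Median log2 ratios over the progenitor gate are shown for the members and 8 comparison lists, with all measured genes between them, for early (open) and late (filled) neutrophils, Cxxc5 knockdown above control. The members lie at -2.43 and -2.97 in late neutrophils, cytosolic ribosomal proteins at -0.76 and -0.64 and proliferation genes at 0.14 and -0.10.

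Within a gate, cells rich in some members were rich in others. Cells were thinned to 5000 UMIs each, which left 2466 knockdown and 1023 control progenitors, and the sum of the 37 members other than Myc, Ncl and Npm1 was set against other sums over those cells. Spearman's rho with Ncl and Npm1 was 0.44 in knockdown and 0.51 in control progenitors, and 0.61 and 0.65 in early neutrophils (1695 and 924 cells). With S100a8 and S100a9 it was -0.51 and -0.56 in early neutrophils. With cytosolic ribosomal proteins it was -0.42 and -0.44 in progenitors 0.08 and 0.01 in early neutrophils, and 0.45 and 0.16 in late neutrophils (224 and 174 cells), so its sign differed between gates. These values are descriptions: the cells of a gate share a library and a culture, and at a fixed total any abundant sum, such as that of the ribosomal proteins, takes UMIs from the others.

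Myc UMIs told little about the other members in progenitors. Progenitors thinned to 5000 UMIs held medians of 39, 40 and 40 other-member UMIs with 0, 1 and at least 2 Myc UMIs in the knockdown, and 36, 38 and 38.5 in the control. In early neutrophils the medians were 22, 25.5 and 28 in the knockdown and 17, 22 and 30 in the control, the last from 43 and 21 cells. Spearman's rho of Myc with the 37 members was 0.06 and 0.11 in progenitors and 0.11 and 0.12 in early neutrophils. The summed ratio of cells with at least 2 over cells with 0 Myc UMIs was 0.04 and 0.10 in progenitors and 0.32 and 0.58 in early neutrophils, on the log2 scale. Myc counts per cell were at most a few UMIs, so a weak relation here is no finding about the genes.

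The promoters of the members were searched for the sequence that MYC and MAX are known to bind, the E-box CACGTG, which reads the same on both strands. RefSeq windows (GRCm38.p6) from 250 bases before to 50 bases after the start of transcription were at hand for 34 of 40 members, and 8 of these (23.5%) held the motif: Imp4, Nop2, Utp20, Pes1, Mybbp1a, Tsr1, Nle1 and Wdr43. The same was true of 13.3% of all genes with at least 10 CPM and of 8.09% of all genes in the table. Not searched were Myc, Npm1, Fbl, Bop1, Rrp12 and Rrs1. The windows below belong to Mybbp1a and Nle1, among the most reduced members in control late neutrophils, to Pes1 and Imp4, among the least reduced of the 8, and to Gnl3, the most reduced member, whose window has no such motif. They run 5′ to 3′ on the gene's strand, with the E-box in capitals: Mybbp1a (chr11:72441077-72441376, plus strand), Nle1 (chr11:82908346-82908645, minus strand), Pes1 (chr11:3963725-3964024, plus strand), Imp4 (chr1:34439579-34439878, plus strand) and Gnl3 (chr14:31019082-31019381, minus strand).
Mybbp1a: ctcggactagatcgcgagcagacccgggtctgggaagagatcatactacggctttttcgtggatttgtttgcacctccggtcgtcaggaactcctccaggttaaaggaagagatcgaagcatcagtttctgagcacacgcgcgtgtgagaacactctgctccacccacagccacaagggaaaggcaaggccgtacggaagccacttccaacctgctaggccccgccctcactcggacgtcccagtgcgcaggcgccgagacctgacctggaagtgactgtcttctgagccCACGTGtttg
Nle1: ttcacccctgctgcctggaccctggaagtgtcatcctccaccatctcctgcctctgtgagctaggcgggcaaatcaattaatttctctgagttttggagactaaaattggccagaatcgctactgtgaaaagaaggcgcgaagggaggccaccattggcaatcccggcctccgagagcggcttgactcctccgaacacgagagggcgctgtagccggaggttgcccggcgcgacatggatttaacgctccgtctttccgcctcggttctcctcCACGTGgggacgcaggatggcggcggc
Pes1: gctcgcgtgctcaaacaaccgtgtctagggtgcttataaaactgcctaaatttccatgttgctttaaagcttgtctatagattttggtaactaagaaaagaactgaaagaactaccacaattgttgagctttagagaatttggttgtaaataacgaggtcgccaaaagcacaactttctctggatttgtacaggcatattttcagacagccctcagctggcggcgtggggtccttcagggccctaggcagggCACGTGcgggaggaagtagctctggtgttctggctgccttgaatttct
Imp4: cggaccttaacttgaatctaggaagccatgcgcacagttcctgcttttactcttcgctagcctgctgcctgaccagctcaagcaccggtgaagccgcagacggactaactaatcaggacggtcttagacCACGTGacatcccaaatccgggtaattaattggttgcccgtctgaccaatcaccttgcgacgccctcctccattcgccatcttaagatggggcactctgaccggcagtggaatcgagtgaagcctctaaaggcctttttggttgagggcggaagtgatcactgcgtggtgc
Gnl3: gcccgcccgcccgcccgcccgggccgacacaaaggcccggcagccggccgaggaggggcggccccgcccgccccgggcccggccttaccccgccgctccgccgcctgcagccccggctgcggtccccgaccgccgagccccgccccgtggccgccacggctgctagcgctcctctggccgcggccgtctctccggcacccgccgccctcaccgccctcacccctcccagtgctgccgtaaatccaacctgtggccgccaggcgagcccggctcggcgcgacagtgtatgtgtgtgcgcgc

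The motif began at base 41 of the transcript in Mybbp1a, at base 24 in Nle1 and at base 3 in Pes1, while in Imp4 it lay 121 bases before the start. In 6 of the 8 members it was downstream of the start, the others being Imp4 and Nop2. The 8 members with the motif had late medians of -2.84 in the knockdown and -3.68 in the control, and the 26 without it -2.43 and -3.09. Their ranges overlapped widely, from -3.64 to -1.83 with the motif and from -3.80 to -1.71 without it in the knockdown.

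A further feature of the set was the number of genes with small nucleolar RNA genes inside them. By the GENCODE M21 annotation 6 of the 40 members (15%) had 20 such genes within their bounds on the same strand, against 171 of 6556 protein-coding genes of at least 10 CPM (2.61%). The hosts were Ncl with 3, Nop56 with 5, Nop58 with 4, Wdr43 with 3, Tsr1 with 2 and Gnl3 with 3. Ncl, which hosts Snora75 and Snord82, lies on chromosome 1 from 86344719 to 86359400 on the minus strand, and Nop56, which hosts Snord57 and Snord110, on chromosome 2 from 130274430 to 130279313 on the plus strand (GRCm38). The small RNAs themselves lack a poly-A tail and were not measured here.

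The knockdown was compared with the control next, to see whether Cxxc5 shRNA went with a change in these genes. Over all cells the members were slightly higher in the knockdown. They made up 0.673% of all UMIs in the knockdown and 0.606% in the control, and 36 of the 39 measured members had a ratio above 0, with a median log2 of 0.14 against 0.03 over all 6743 measured genes. The median of all genes was thus itself above 0, and the share of all genes above 0 was not taken. At the 1.2-fold mark 1 of 39 members was higher and 0 were lower, where 3.8% and 4.72% of all genes were, so by count the set did not stand above the rest. Counting intervals were above 0 for 28 of the 39 members and below it for 1, where those of 32.5% and 19.3% of all genes were. A gene with many UMIs clears 0 by a smaller ratio than a scarce one, so this count also moves with the depth of the members.

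Mybbp1a was the member past the 1.2-fold mark, with 116 CPM in the knockdown and 94.0 CPM in the control (log2 0.30, interval 0.25 to 0.35). It was also higher in each gate compared, with 0.20 in progenitors, 0.31 in early and 1.63 in late neutrophils, 0.33 in the monocyte gate, 0.31 in the mast cell gate and 0.29 in ungated cells. Nip7 (101 and 85.3 CPM), Noc2l (68.6 and 59.0 CPM), Npm1 (2364 and 2070.4 CPM) and Ftsj3 (75.3 and 66.2 CPM) followed, with log2 ratios between 0.19 and 0.24. Ddx21 was the one with an interval below 0, with 137 CPM in the knockdown and 147 CPM in the control (-0.10, -0.15 to -0.06). Noc3l at -0.07 and Wdr12 at -0.01 were the other measured members below 0, and Rrp1b at 0.02 and Ddx10 at 0.03 lay just above. Heatr1, at 9.77 and 9.95 CPM, was under the level set for a measured gene. Myc had 65.6 CPM in the knockdown and 63.7 CPM in the control (0.04, -0.02 to 0.11).

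**Figure D5:**
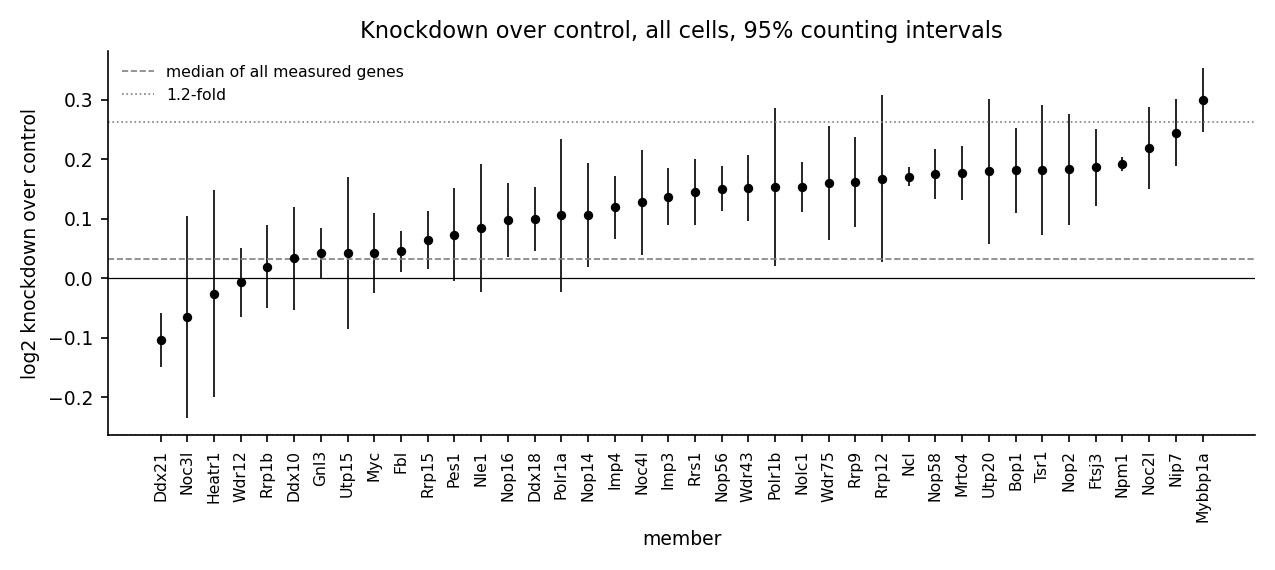
Log2 ratios of Cxxc5 knockdown over control are shown for each member over all cells, with 95% counting intervals. The ratios run from -0.10 for Ddx21 to 0.30 for Mybbp1a, and Mybbp1a alone lies beyond the dotted 1.2-fold line.

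Cell make-up moved with this difference, since progenitors were 44.5% of knockdown and 35.5% of control cells and late neutrophils 4.85% and 6.87%. Within progenitors the median log2 ratio of the members was 0.06, against 0.01 over all genes, with 0 of 40 members at least 1.2-fold higher and 0 lower (3.64% and 3.99% of all genes were). With each gate's share of UMIs held at that of the control, 0 members were at least 1.2-fold higher over all cells. The share of all genes in that setting was not taken. This count does not measure how much of the difference goes with cell make-up, which was not tested. In early neutrophils the median was 0.17 and 2 of 38 measured members, Mybbp1a and Utp20, were at least 1.2-fold higher and 0 lower, where 7.38% and 6.66% of all genes were. The monocyte gate gave 0.06, with 5 of 40 members higher and 1 lower (9.8% and 11.2% of all genes). The mast cell gate gave 0.16, with 8 higher and 1 lower (18% and 14.7%), and ungated cells 0.06, with 5 higher and 3 lower (20.1% and 18.3%). In these gates the counts of members were near what the shares of all genes give, or under it.

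In the late neutrophil gate the ratios were larger, although the difference between gates was not tested. There the members took 0.146% of UMIs in the knockdown and 0.0932% in the control, a log2 ratio of the sums of 0.65 (0.57 to 0.73). The median cell differed less, with per-cell member sums, scaled as for the gates above, of 9.75 in the knockdown and 8.22 in the control. Upper quartiles were 15.6 and 11.2, and lower ones 4.93 and 3.98. The 95th percentiles were 33.1 and 16.0, while the matching low percentiles went the other way, at 0 and 1.40. The ratio of the sums thus gives weight to cells rich in members, and its interval leaves out this spread over cells. Taking all 40 members whatever their level, 37 were above 0 and 3 below (Polr1a, Rrp9 and Nop2), with a median of 0.62 against 0.15 over the 6790 genes measured in progenitors. The median of those genes was thus itself above 0, and their share above 0 was not taken. At least 1.2-fold higher were 32 of 40, where 38.5% of those genes were, and 3 were at least 1.2-fold lower, where 15.4% were. Among 27 members of at least 10 CPM in either library 22 were at least 1.2-fold higher and 0 lower, with 35.1% and 15.8% of all genes. All 27 reached that level in the knockdown and 20 in the control, so 7 passed through the knockdown alone and had to be higher there, and this count is a description only. Gnl3 had 23.9 CPM in knockdown and 5.68 CPM in control late neutrophils (2.07, interval 1.15 to 3.12). Nop58 had 51.0 and 18.9 CPM (1.43, 0.90 to 1.99), and Rrs1 35.9 and 14.2 CPM (1.34, 0.71 to 1.997). Intervals were above 0 for 15 of the 40 members and below 0 for none, where those of 14.2% and 4.71% of the genes measured in progenitors were. Npm1, with the most UMIs, had 470.0 and 283 CPM (0.73, 0.58 to 0.88). Myc, at 17.9 and 12.3 CPM, had an interval that includes 0 (0.54, -0.21 to 1.32).

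The late gates of the libraries also differed in depth and markers. Their median cells had 7179 UMIs in the knockdown and 10039.5 in the control. The 4 progenitor gate genes summed to 7970.4 CPM in knockdown and 5130 CPM in control late neutrophils, each of the 4 being higher in the knockdown, with Mpo at 378 and 137 CPM and Ctsg at 565 and 194 CPM. The 5 matched further progenitor genes summed to 2084 and 1478 CPM, and Cd34 among them was at 1.84 CPM in the knockdown and 0 in the control. The 6 monocyte gate genes summed to 15.2 and 1.42 CPM, with 0 of 6 at zero in the knockdown and 4 of 6 in the control (Irf8, Ms4a6c, Ccr2 and F13a1). A further list of 5 monocyte genes summed to 5542 and 6582 CPM, with 3 of 5 at 0 in the control. Ly6c2 (3032 and 3538 CPM) and Lyz2 (2508 and 3044 CPM) made up nearly all of that sum, and both were lower in the monocyte gate than in late neutrophils. Klf4, Ctss and Cx3cr1 went the way of the gate genes, at 0.92, 0.46 and 0.46 CPM in the knockdown and 0 in the control. The 9 mast cell and basophil genes summed to 23.5 and 12.8 CPM, and the 4 dendritic cell genes to 9.66 and 3.78 CPM. Another 5 genes of mast cells and basophils summed to 1552 and 1811 CPM, nearly all of it Fcer1g (1500 and 1756 CPM). Kit among them was higher in the knockdown (8.74 and 6.15 CPM), while Hdc and Cyp11a1 were lower. The sums of the progenitor genes do not mark progenitors over early neutrophils. In early neutrophils the 4 gate genes summed to 24475 and 23046 CPM, against 15464 and 15342 CPM in the progenitor gate. The 5 further genes summed to 5019 and 4792 CPM, against 3444 and 3350.4 CPM. Cd34 among them went the other way, with 3.04 and 3.30 CPM in early neutrophils against 35.4 and 45.2 CPM in the progenitor gate. Its level in knockdown late neutrophils rests on 4 UMIs. The part of these transcripts in the members' difference was not tested. Without the cells of highest doublet score the median of all 40 members in this gate was 0.29, against 0.08 over all genes measured in progenitors, and 20 of 40 were at least 1.2-fold higher, where 31.9% of those genes were. With joint clusters in place of gates it was 0.32 against 0.10, with 21 of 40 higher and 32.3% of genes. Holding the bins of S100a8 and S100a9 at the control's shares of UMIs, an alternative chosen after the data were seen, gave 0.19 against 0.08, with 17 of 40 higher and 30.9% of genes. Among members of at least 10 CPM the counts were 12 of 23, 13 of 24 and 11 of 23 in these 3 settings, of which 3, 5 and 4 passed through the knockdown alone, and the shares of all genes were 29.3%, 29.5% and 28.2%. In the highest bin itself, with 183 knockdown and 138 control cells of this gate, the log2 ratio of the summed members was 0.15 (0.03 to 0.28), and in the bin below, with 84 and 52 cells, 0.46 (0.32 to 0.60).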

How the data were processed

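Single cells were profiled in 2 libraries. The authors deposited raw UMI counts for each gene and barcode. The kit was the 3' version 2 chemistry of 10x Genomics per the labels' protocols, and the submitters' processing notes name Cell Ranger 2.1.1 and mm10. Totals were 62910229 UMIs in the Cxxc5 knockdown and 49333454 in the control library. A cell needed 500 genes and no more than 10% mitochondrial UMIs, which removed 11 and 13 barcodes. A gate required, per 10000 UMIs and in this order, 10 of dendritic, 5 of mast cell and basophil, 20 of neutrophil (late with 3 of Ltf), 5 of monocyte or 50 of progenitor markers. Within 20% of the neutrophil cut lay 209 knockdown and 98 control cells, and of the Ltf cut 23 and 10. Levels are summed UMIs as CPM with exact Poisson intervals, and ratios have exact conditional binomial intervals, both for counting error alone. The arithmetic was tested on simulated data. Scrublet (scanpy 1.11.5) called 14 and 8 cells, too few to rely on, so doublets stayed in, and an alternative removed the 288 and 68 cells of highest score. Other alternatives were the scaling, the minimum level, thinning, halved gate thresholds, joint Leiden clusters and held shares. Members and lists were chosen with earlier results of these data known. Genes given in every gate compared were Myc, Ncl, Npm1, Fbl, the members of highest and lowest control late ratio in each role, and the 5 highest and 5 lowest knockdown ratios. The others were named after their values were seen. Of 214 listed comparison and marker genes 212 were matched. Positions are from GENCODE M21 (GRCm38) and promoters from RefSeq (GRCm38.p6). Python 3.11.15, numpy 2.4.6 and scipy 1.17.1 were used.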

Additional observations from a re-analysis of the deposited data

Results flagged for a closer look

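Ddx18, a helicase of large-subunit assembly, was higher in the Cxxc5 knockdown in late neutrophils, with a log2 ratio of 0.875 (38.2 CPM in the knockdown and 20.8 CPM in the control), and lower in ungated cells, with -0.391 (102 and 133 CPM). It stands out because its counting intervals lay on opposite sides of 0 in these gates. With 1 library per group the difference between the gates was not tested.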

How the results depend on the processing

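Of 220 alternative values 186 stayed within counting error, or within 1.5 times for counts, and 34 moved. Of the called medians 0 changed sign. Of 126 medians under alternatives 1 had the other sign, that of ungated cells, at -0.30 with gate thresholds halved. No paired analysis was possible because each group has 1 library, and no replicate could be left out.

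Scaling to the median gene gave stage medians of -0.58 and -1.70 in the knockdown (early and late) and -0.67 and -2.15 in the control. Halved gate thresholds gave -0.61 for early knockdown neutrophils, joint clusters -0.68 for early control neutrophils, and the highest against the lowest bin -3.24 for the knockdown. A minimum of 50 CPM left 26 members in each stage comparison, all 26 of them lower. In late neutrophils only Ncl, Npm1, Fbl, Nop56 and Nop58 reached that level in the knockdown, and only Ncl and Npm1 in the control. The others passed through the progenitor gate alone and had to be lower in late neutrophils, so this count is a description only. Between the libraries 5 members were measured in the late gate at that minimum. All 5 were higher in the knockdown, where 29.8% of all genes were, but 3 passed through the knockdown alone and had to be higher. That count was 12 without high doublet scores, 13 in joint clusters and 11 with bins held. The count of higher members over all cells was 2 with cells weighted equally, 4 after thinning, and 0 at 1.5-fold or with gate shares of UMIs held at control. The shares of all genes in these settings were not taken, so these counts are descriptions only. Without Ncl and Npm1 the log2 ratio of the sums was 0.11, in place of 0.15. The per-cell medians without this pair were 37.2, 21.8 and 4.76 in the knockdown and 36.7, 18.8 and 3.18 in the control, and thinning gave 80.0 in progenitors and 12 in late neutrophils of the knockdown. At 3000 in place of 5000 UMIs, progenitors with at least 2 Myc UMIs exceeded those with 0 by 0.27 in place of 0.10 (log2, control). The log2 ratio of members in cells with at least 5 over cells with fewer proliferation UMIs, which were too few at 5000 UMIs to be used, was 0.10 in place of 0.40 in progenitors and 0.10 in place of 0.44 in early neutrophils of the knockdown, and 0.18 in place of 0.35 and 0.14 in place of 0.50 in the control. The cause of these moves was not tested, apart from the smaller number of members at the higher minimum and the 2 genes left out. The held bins, the bin comparison and the sums without Ncl and Npm1 were chosen after seeing the data. Depth limits the late gate most, where members had as few as 3 UMIs in the knockdown and 1 in the control.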

Other observations

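Over all cells Naf1, an assembly factor of the H/ACA particle, differed between the libraries where its neighbours in the particle differed little. It had 35.7 CPM in the Cxxc5 knockdown and 14.5 CPM in the control over all cells (log2 1.30, interval 1.18 to 1.43), while the other 5 H/ACA genes lay between -0.18 and 0.17. Naf1 was higher in the knockdown in each gate compared, with 1.08 in progenitors, 1.71 in early neutrophils, 1.22 in the monocyte gate, 1.36 in the mast cell gate and 1.31 in ungated cells. In late neutrophils it was at 7.36 CPM in the knockdown and 1.89 CPM in the control. The 4 H/ACA genes of at least 10 CPM in that gate were all at least 1.2-fold higher in the knockdown too (log2 0.34 to 1.32). Of all genes 35.1% were, and any that passed through the knockdown alone had to be higher. The lowest ratio of an H/ACA gene was -0.30 in progenitors and -0.42 in ungated cells. Mxd4, which encodes a MAX partner of the MXD family, went the other way, with 14.0 CPM in the knockdown and 22.3 CPM in the control over all cells (-0.68, -0.81 to -0.55), and with -0.82 in progenitors, -0.58 in early neutrophils and -0.92 in the monocyte gate. In the mast cell gate (-0.26) and in ungated cells (-0.33) its counting intervals included 0. Both genes were singled out after their values were seen, and each comparison rests on 1 library per group.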
